A study of Mus musculus with 3 samples.

Results

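Smooth muscle cells, pericytes and activated fibroblasts share a set of actin, myosin and actin-binding proteins that let them pull. Described here are 10 of the genes for that machinery, Acta2, Tagln, Myh11, Cnn1, Cnn2, Mylk, Lmod1, Actg2, Myl9 and Cald1. They were chosen by name, and all 10 were found among the 32285 genes of the feature list. Their levels were read in nuclei of mouse heart taken 2 weeks after surgery. There were 3 single-nucleus libraries, 1 per group and with no replicates. Sham-NS hearts had sham surgery with NS. MI-NS hearts had a myocardial infarction with NS. MI-DAPA hearts had an infarction with dapagliflozin, a drug that blocks glucose uptake by SGLT2 in the kidney. Values given as a series of 3 follow this order. What NS stands for, the strain, age and number of mice, and the dose are not given in the sources used here.

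As background, force in smooth muscle starts when myosin light chain kinase, fed by calcium and calmodulin, phosphorylates the light chain of smooth muscle myosin, which then pulls on alpha-actin filaments. Calponin, caldesmon and transgelin sit on those filaments, and calponin and caldesmon restrain the myosin. In a healthy heart this set belongs mainly to the wall of the coronary arteries and, in part, to pericytes on capillaries. After an infarct, fibroblasts that build the scar can take on part of it, and are then called myofibroblasts, for which alpha-actin is the customary marker.

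The libraries held 13873275, 10113430 and 8871086 UMIs, each UMI marking a distinct RNA molecule. After filtering, 8296, 7065 and 5372 nuclei remained, with median depths of 790, 851 and 831 UMIs. Nuclei were clustered without the 10 genes, and no marker set that named a class held any of them, so their levels played no part in the classes. The smooth muscle-like class had 59, 51 and 41 nuclei, the pericyte-like class 526, 271 and 334, and the fibroblast-like class 1774, 2035 and 1351. The fibroblast-like class was made of 3 clusters, led by Dpep1 and Col6a6, by Comp and Ltbp2, and by Pi16 and Vcan. Mitochondrial UMIs had medians of 3.32%, 1.48% and 2.42%. The clock gene Per2 stood at 435, 14.7 and 22.8 CPM in fibroblast-like nuclei. The part of these differences between libraries in the results was not tested. Levels in CPM are the UMIs of a gene scaled to the same total of UMIs in every class. Brackets give 95% intervals, which cover counting error only and say nothing of the spread between animals. With 1 library per group no test was possible, and a gene was called different at a 2-fold ratio with at least 50 UMIs over both libraries, here termed measurable.

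Expression of many smooth muscle genes is driven by serum response factor, which binds the CArG box, and, in some, by TEAD factors, which bind the MCAT motif CATTCC. The 250 bases before the start were read from RefSeq promoters (GRCm38.p6) for the 7 of 10 genes that matched by symbol. The start is that of the RefSeq entry and can differ from the edge of the gene interval given below. The windows of Acta2 and Mylk lie inside those intervals, and that of Mylk precedes a start well within the gene. Tagln, Myh11 and Actg2 had no entry. The windows below are shown because they hold every match found, with the match in capitals, in 30 bases on the strand of the gene. A CArG-like match has 1 G or C among the 6 inner bases of the box. Both strands were searched, positions count back from the start, and no match overlapped another.
Acta2, CArG-like at -84 to -75 (chr19:34255438-34255467, minus): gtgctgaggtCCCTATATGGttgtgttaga
Acta2, CArG-like at -34 to -25 (chr19:34255388-34255417, minus): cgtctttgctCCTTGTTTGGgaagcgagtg
Acta2, MCAT at -146 to -141 (chr19:34255502-34255531, minus): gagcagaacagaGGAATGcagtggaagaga
Cnn2, CArG box at -56 to -47 (chr10:79988534-79988563, plus): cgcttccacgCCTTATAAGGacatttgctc
Myl9, CArG box at -161 to -152 (chr2:156775293-156775322, plus): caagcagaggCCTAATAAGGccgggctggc
Myl9, CArG-like at -99 to -90 (chr2:156775355-156775384, plus): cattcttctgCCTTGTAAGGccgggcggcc
Mylk, MCAT at -158 to -153 (chr16:34784780-34784809, plus): tgcagttcagaaCATTCCctggtacgtgca
Lmod1, MCAT at -130 to -125 (chr1:135324671-135324700, plus): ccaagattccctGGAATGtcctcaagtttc
Cald1, MCAT at -153 to -148 (chr6:34598339-34598368, plus): gagcatgcctagGGAATGacaggcatctgc

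A CArG box or CArG-like match was found in 3 of the 7 genes, and an MCAT match in 4 of 7. Over all 32851 promoters of that length, 1.47% held a CArG box, 7.24% a CArG-like match, 8.59% either of these and 12.6% an MCAT match. These shares are per promoter, while the counts of members are per gene. Of the genes called in fibroblast-like nuclei below, Acta2 and Cnn2 had a CArG-type match, and Acta2, Mylk and Cald1 an MCAT match. The window of Cnn1 and that of the second start of Cald1 held neither. A match is a description of the letters and not evidence of binding.

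Summed over the 10 genes, smooth muscle-like nuclei carried the highest level in each library, at 10883 (9965 to 11863), 9711 (8847 to 10637) and 10970 (9883 to 12143) CPM. Pericyte-like nuclei followed at 2757, 2873 and 2774 CPM. Fibroblast-like nuclei stood at 559, 1522 and 1023 CPM. Among classes with at least 20 nuclei in a library, the lowest sums were in cardiomyocyte-like nuclei, at 42.5, 98.6 and 46.6 CPM. With these classes the sum of all 10 genes in smooth muscle-like nuclei differed by no more than counting error between libraries. Without Cald1, a choice made after its level was seen, the log2 ratio of MI-NS to Sham-NS there was -0.26 (-0.48 to -0.05), which excludes 0. In fibroblast-like nuclei the sum of all 10 genes was 2.72-fold higher (2.51 to 2.95) in MI-NS, relative to Sham-NS. The smooth muscle-like sum depends on which nuclei are classed: its log2 ratio of MI-NS to Sham-NS was -0.16 (-0.35 to 0.02) here, -0.997 with a stricter filter on nuclei and 1.24 when nuclei were classed by marker level.

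**Figure D1:**
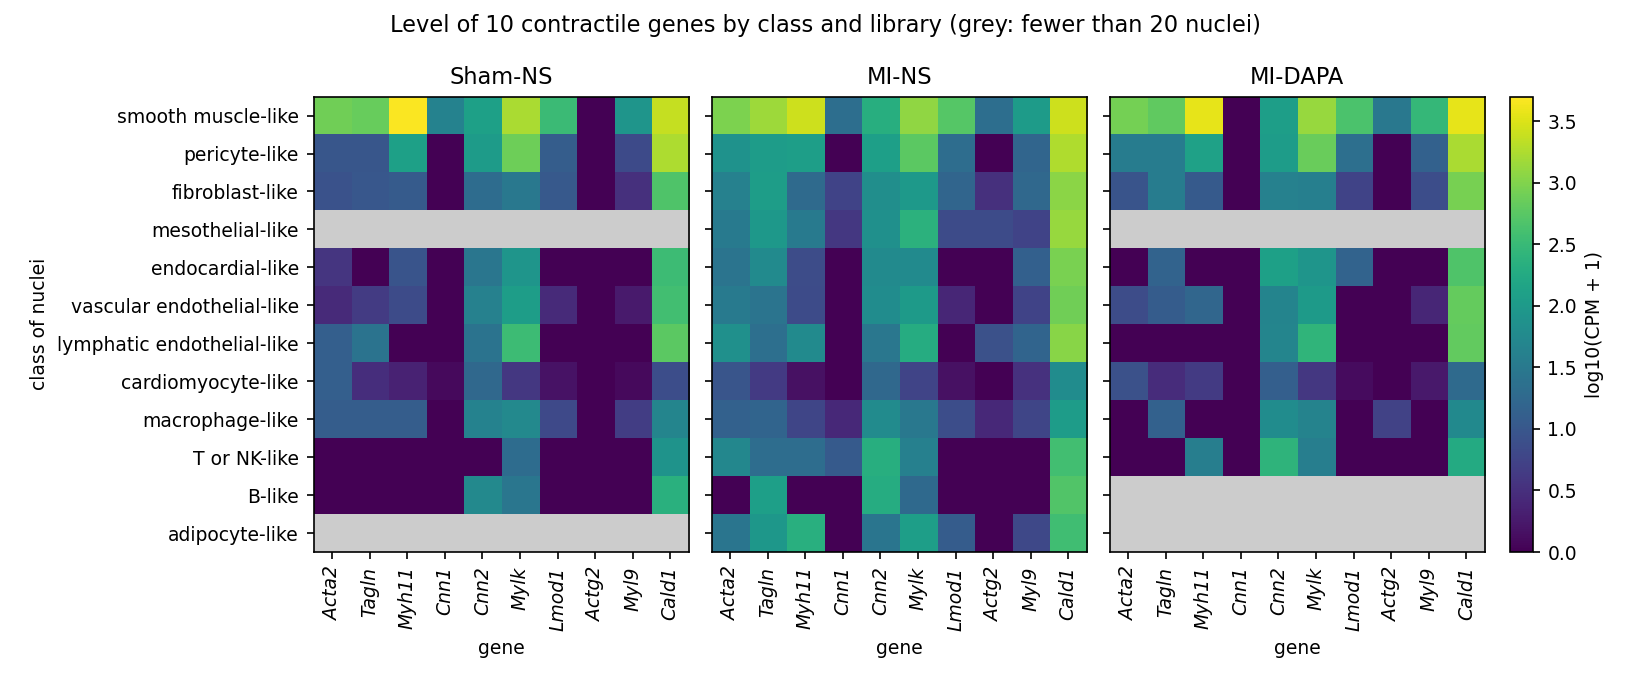
Levels of the 10 genes as log10(CPM + 1), by class of nuclei (rows) and gene (columns), with 1 panel per library; grey marks classes with fewer than 20 nuclei. Smooth muscle-like nuclei are brightest for Acta2, Tagln and Myh11 in every library, Cald1 is also high in pericyte-like, fibroblast-like and endothelial nuclei, and Cnn1 and Actg2 rest on at most 18 UMIs per library.

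The smooth muscle-like class was checked against its own markers. Of its 17 markers, 15, 13 and 12 were detected, and 8 stood at least 2-fold above all nuclei. The olfactory receptor genes Olfr78 and Olfr558 and the potassium channel gene Kcnt1 led the cluster. In the first clustering a cluster of 225 nuclei led by the same genes was left unnamed. The class was named in a second clustering of smooth muscle and pericyte candidates, where only the marker sets of those types were compared. Its summed pericyte markers (4294, 3985 and 4305 CPM) exceeded its summed smooth muscle markers (2063, 3083 and 2418 CPM), and in pericyte-like nuclei the latter stood at 1107, 926 and 1318 CPM. The summed level of 16 fibroblast markers in smooth muscle-like nuclei was 1347, 5013 and 3244 CPM, with Dcn and Col1a1 at 0 in Sham-NS. Beside every smooth muscle result below, fibroblast marker RNA was thus highest in MI-NS, and its part was not tested.

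Acta2 makes smooth muscle alpha-actin, the thin filament of the arterial wall, and lies at chr19:34241090-34255590 on the minus strand of GRCm38. In smooth muscle-like nuclei it stood at 800, 923 and 855 CPM, from 38, 44 and 29 UMIs. The 3 intervals overlap, and the log2 ratio of MI-NS to Sham-NS was 0.20 (-0.45 to 0.87).

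Tagln (chr9:45929619-45936058, minus), which makes transgelin or SM22-alpha, an actin-bundling protein, did differ there. Its level was 695 (478 to 976), 1426 (1108 to 1808) and 619 (383 to 947) CPM. MI-NS was the high library and the intervals of the other two overlap, with log2 ratios of 1.03 (0.42 to 1.68) for MI-NS over Sham-NS and -1.18 (-1.98 to -0.48) for MI-DAPA over MI-NS. Under the stricter filter on nuclei the first ratio was -0.13 (-1.06 to 1.13), so the direction rests on the choice of nuclei.

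Myh11 (chr16:14194535-14291372, minus) encodes the heavy chain of smooth muscle myosin and is usually taken as the gene most restricted to mature smooth muscle. MI-NS was its lowest library, with 4694 (4098 to 5353), 2601 (2163 to 3101) and 3686 (3068 to 4392) CPM. Sham-NS was the high library, its interval apart from that of MI-NS, at a log2 ratio of -0.85 (-1.18 to -0.53). MI-DAPA lay between, 0.50 (0.13 to 0.87) above MI-NS and -0.35 (-0.68 to -0.03) against Sham-NS. The summed level of 13 cardiomyocyte markers in this class had the same order of libraries as Myh11, at 6421, 4153 and 5721 CPM, and its part was not tested. When each nucleus was classed by its marker level instead of its cluster, the ratio of MI-NS to Sham-NS was 0.76 (0.35 to 1.17) and that of MI-DAPA to MI-NS was -0.77 (-1.28 to -0.30). With the mixed clusters kept, MI-DAPA over Sham-NS was 0.52 (0.19 to 0.83). All 3 directions of Myh11 therefore rest on the choice of nuclei. Outside this class, adipocyte-like nuclei of MI-NS held 40 Myh11 UMIs in 186246, against 23 in 198762 for pericyte-like nuclei of MI-NS.

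Mylk, the kinase that switches myosin on (chr16:34745210-35002420, plus), stood at 1705, 1237 and 1327 CPM in smooth muscle-like nuclei. The MI-NS level was lower than that of Sham-NS by less than its counting error, at a log2 ratio of -0.46 (-0.97 to 0.04). Cald1, for the actin-binding brake caldesmon (chr6:34598500-34775473, plus), was at 2400, 2643 and 3598 CPM. MI-DAPA was the high library for it, 0.45 (0.07 to 0.82) above MI-NS and 0.58 (0.20 to 0.97) above Sham-NS on the log2 scale. Classed by marker level, the ratio of MI-DAPA to MI-NS was -0.32 (-0.72 to 0.07).

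The other members were too scarce to compare in this class. Lmod1, a leiomodin that seeds actin filaments (chr1:135324807-135368065, plus), had 16, 25 and 15 UMIs. Cnn2, the calponin of non-muscle cells (chr10:79988584-79996062, plus), had 6, 10 and 4. Myl9, the myosin regulatory light chain (chr2:156775420-156781658, plus), had 4, 5 and 10. Cnn1, the calponin of differentiated smooth muscle (chr9:22099216-22109630, plus), had 2, 1 and 0, and Actg2, the gamma-actin of gut muscle (chr6:83512905-83536265, minus), had 0, 1 and 1. In MI-DAPA 0 of 33911 UMIs allows a Cnn1 level of up to 108.8 CPM, the upper limit of its exact Poisson interval. These 5 genes show what the nuclei hold at this depth and not that the genes were off.

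Counted over the class, 1 of the 5 measurable members (Tagln) was at least 2-fold higher in MI-NS, relative to Sham-NS, against 7.43% of the 202 measurable genes, and 0 were 2-fold lower, against 15.3%. Between MI-DAPA and MI-NS, 1 of 5 (again Tagln) was 2-fold lower, against 5.1% of 157 genes. Tagln was measurable through its 68 UMIs in MI-NS, where it was high, beside 33 in Sham-NS and 21 in MI-DAPA. The filter thus in part fixed both counts of Tagln. The median log2 ratio of the 5 members was 0.14 for MI-NS over Sham-NS, where that of all measurable genes was -0.32. As shares of nuclei with at least 1 UMI, each nucleus thinned to 500 UMIs, Myh11 was seen in 81.4% (69.1 to 90.3), 60.8% (46.1 to 74.2) and 70.7% (54.5 to 83.9). The unthinned shares were 88.1%, 70.6% and 80.5%, at median depths of 700, 832 and 677 UMIs. Cardiomyocyte-like nuclei, which should lack Myh11, gave 0.124%, 0% and 0% when thinned, at median depths of 2217, 1935 and 2255 UMIs.

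**Figure D2:**
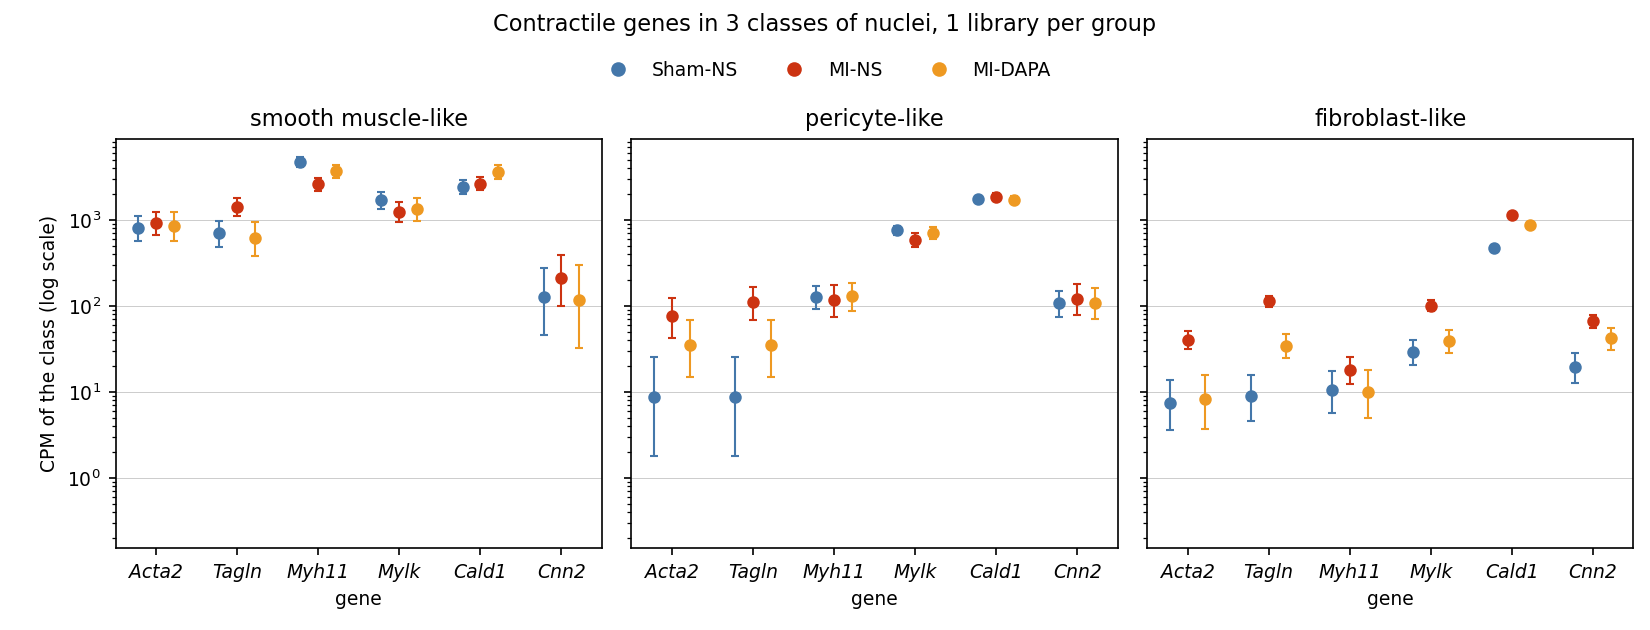
Level of 6 genes in CPM on a log axis, in smooth muscle-like, pericyte-like and fibroblast-like nuclei; points are single libraries and bars are exact Poisson 95% intervals. Tagln is highest in MI-NS in all 3 classes, Myh11 is lowest in MI-NS in smooth muscle-like nuclei, and in fibroblast-like nuclei the MI-NS points of Acta2, Tagln, Mylk, Cald1 and Cnn2 lie above both other libraries.

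Pericyte-like nuclei kept nearly the same contractile sum in all 3 libraries, with log2 ratios of 0.06 (-0.09 to 0.21) for MI-NS over Sham-NS and -0.05 (-0.22 to 0.12) for MI-DAPA over MI-NS. Cald1 made up most of it, at 1730, 1836 and 1725 CPM. Mylk was at 758, 579 and 707 CPM, so that MI-NS was lowest, at a log2 ratio of -0.39 (-0.72 to -0.07) to Sham-NS. Myh11 was at 127, 116 and 130 CPM and Cnn2 at 107, 121 and 108 CPM, each with overlapping intervals.

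Acta2 and Tagln were rare in pericyte-like nuclei, with the most UMIs in MI-NS. Acta2 had 3, 15 and 8 UMIs, and Tagln had 3, 22 and 8. The log2 ratio of MI-NS to Sham-NS was 2.95 (1.30 to 5.55) for Acta2 and 3.49 (1.94 to 6.06) for Tagln, in both cases with under 50 UMIs. For MI-DAPA over MI-NS, also with under 50 UMIs, it was -1.08 (-2.57 to 0.21) for Acta2 and -1.62 (-3.05 to -0.45) for Tagln. Of the MI-NS UMIs, 13 of 15 for Acta2 and 20 of 22 for Tagln came from 1 of the 3 pericyte-like sub-clusters, which held 203 of the 271 MI-NS nuclei. That sub-cluster held 58 of the 526 Sham-NS and 100 of the 334 MI-DAPA nuclei, so the make-up of the class differed between libraries. The summed fibroblast markers of the class were 2529, 4825 and 2584 CPM, again highest in MI-NS, and their part was not tested. None of the 4 measurable members differed 2-fold between MI-NS and Sham-NS, where 7.55% of 2186 genes did. Between MI-DAPA and MI-NS none of 3 did, against 4.52% of 1659.

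Of the smooth muscle-like, pericyte-like and fibroblast-like classes, the last had the largest ratio of summed level between MI-NS and Sham-NS. The 5 measurable members, Acta2, Tagln, Cnn2, Mylk and Cald1, were at least 2-fold higher in MI-NS, relative to Sham-NS, where 8.85% of 8418 measurable genes were. Their median log2 ratio was 1.77, beside 0.11 for all measurable genes. Of these 5, Acta2, Tagln and Mylk were at least 2-fold lower in MI-DAPA, relative to MI-NS, where 3.39% of 8176 genes were. Acta2, Tagln, Cnn2 and Mylk reached the minimum of 50 UMIs through MI-NS, where they were high, so the filter in part fixed this count and median. With no minimum, 8 of the 10 members were at least 2-fold different between MI-NS and Sham-NS, and Myh11 (1.70-fold) and Lmod1 (1.54-fold) were not. The share of all genes past 2-fold with no minimum was not computed, so nothing is read from that count. Its Actg2 call, from 4 and 0 UMIs, rests on the 0.5 UMI added, and its interval includes 0.

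Tagln had the largest ratio of the measurable members between MI-NS and Sham-NS. It had 12, 201 and 38 UMIs, or 8.95 CPM (4.62 to 15.6), 113 (98.3 to 130.2) and 34.6 (24.5 to 47.5). No 2 of these intervals overlap, and MI-DAPA lay between the others. The log2 ratios were 3.61 (2.83 to 4.64) for MI-NS over Sham-NS, -1.70 (-2.25 to -1.21) for MI-DAPA over MI-NS and 1.91 (0.98 to 3.02) for MI-DAPA over Sham-NS. Even so, the MI-NS level was far below the 1426 CPM of smooth muscle-like nuclei.

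Acta2, the usual myofibroblast marker, was scarce. It had 10, 72 and 9 UMIs, or 7.46 CPM (3.58 to 13.7), 40.6 (31.8 to 51.2) and 8.20 (3.75 to 15.6). Only MI-NS stood apart, at a log2 ratio of 2.39 (1.48 to 3.57) over Sham-NS, and MI-DAPA differed from Sham-NS by less than its counting error, at 0.14 (-1.34 to 1.59). In nuclei thinned to 500 UMIs, Acta2 was seen in 0.338%, 1.67% (1.16 to 2.33) and 0.296% of fibroblast-like nuclei, and unthinned in 0.507%, 2.80% and 0.592%. Cardiomyocyte-like nuclei gave 0.497%, 0.518% (0.168 to 1.21) and 0.347% thinned, and unthinned 2.55%, 1.45% and 1.53% at their greater depth. The Sham-NS and MI-DAPA shares of fibroblast-like nuclei were no higher than those of cardiomyocyte-like nuclei, so no expression is read from them. The MI-NS interval overlaps that of cardiomyocyte-like nuclei at its edge. In Sham-NS, Acta2 made up 90.7% of the Acta2 and Myh11 UMIs of cardiomyocyte-like nuclei, against 28.4% over all nuclei kept. They are thus a class to compare with and not a measured background, and the same holds for the macrophage-like nuclei used for Tagln below.

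For Tagln the thinned shares in fibroblast-like nuclei were 0.225%, 4.18% (3.35 to 5.14) and 1.04% (0.568 to 1.73), and unthinned 0.451%, 6.63% and 2.29%, at median depths of 701, 764 and 742 UMIs. Macrophage-like nuclei gave 0.394%, 0.594% and 0.829% thinned, at 633.5, 656 and 591 UMIs. The Sham-NS share of Tagln was no higher than that of macrophage-like nuclei and the MI-NS share was above it, while in MI-DAPA the intervals of these classes overlap.

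Mylk in fibroblast-like nuclei was at 29.1 (20.7 to 39.8), 100.4 (86.2 to 116.3) and 39.2 (28.3 to 52.7) CPM. As for Acta2, MI-NS was high and the intervals of the other libraries overlap. Its log2 ratios were 1.77 (1.28 to 2.33) for MI-NS over Sham-NS and -1.35 (-1.87 to -0.87) for MI-DAPA over MI-NS.

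Cald1 and Cnn2 were also highest in MI-NS, and neither was 2-fold lower in MI-DAPA, relative to MI-NS. Cald1 was at 472 (436 to 510), 1144 (1095 to 1195) and 878 (823 to 935) CPM. Its log2 ratio was 1.28 (1.15 to 1.41) for MI-NS over Sham-NS, -0.38 (-0.49 to -0.27) for MI-DAPA over MI-NS and 0.89 (0.75 to 1.04) for MI-DAPA over Sham-NS. Cnn2 was at 19.4, 66.0 and 41.9 CPM, with log2 ratios of 1.75 (1.15 to 2.44), -0.65 (-1.18 to -0.15) and 1.10 (0.39 to 1.86). Between MI-DAPA and Sham-NS, 2 of 4 measurable members, Tagln and Cnn2, were 2-fold higher, against 3.99% of 7273 genes. Tagln had 38 UMIs in MI-DAPA and 12 in Sham-NS, and Cnn2 had 46 and 26. Both were measurable only with the UMIs of MI-DAPA, where they were high, so the filter in part fixed this count.

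Myh11 in fibroblast-like nuclei had 14, 32 and 11 UMIs and did not separate the libraries, at a log2 ratio of 0.76 (-0.16 to 1.81). Myl9 had 3, 30 and 7 UMIs, Lmod1 13, 27 and 5, Cnn1 0, 8 and 0, and Actg2 0, 4 and 0. Each of these was most frequent in MI-NS. Cald1 supplied 84.4%, 75.2% and 85.8% of the summed UMIs, so the sum was also taken without it, a choice made after its level was seen. The other 9 members together stood at 87.2 (72.1 to 104.6), 377 (349 to 407) and 145 (123 to 169) CPM. Their log2 ratios were 2.11 (1.83 to 2.41) for MI-NS over Sham-NS and -1.38 (-1.64 to -1.13) for MI-DAPA over MI-NS.

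**Figure D3:**
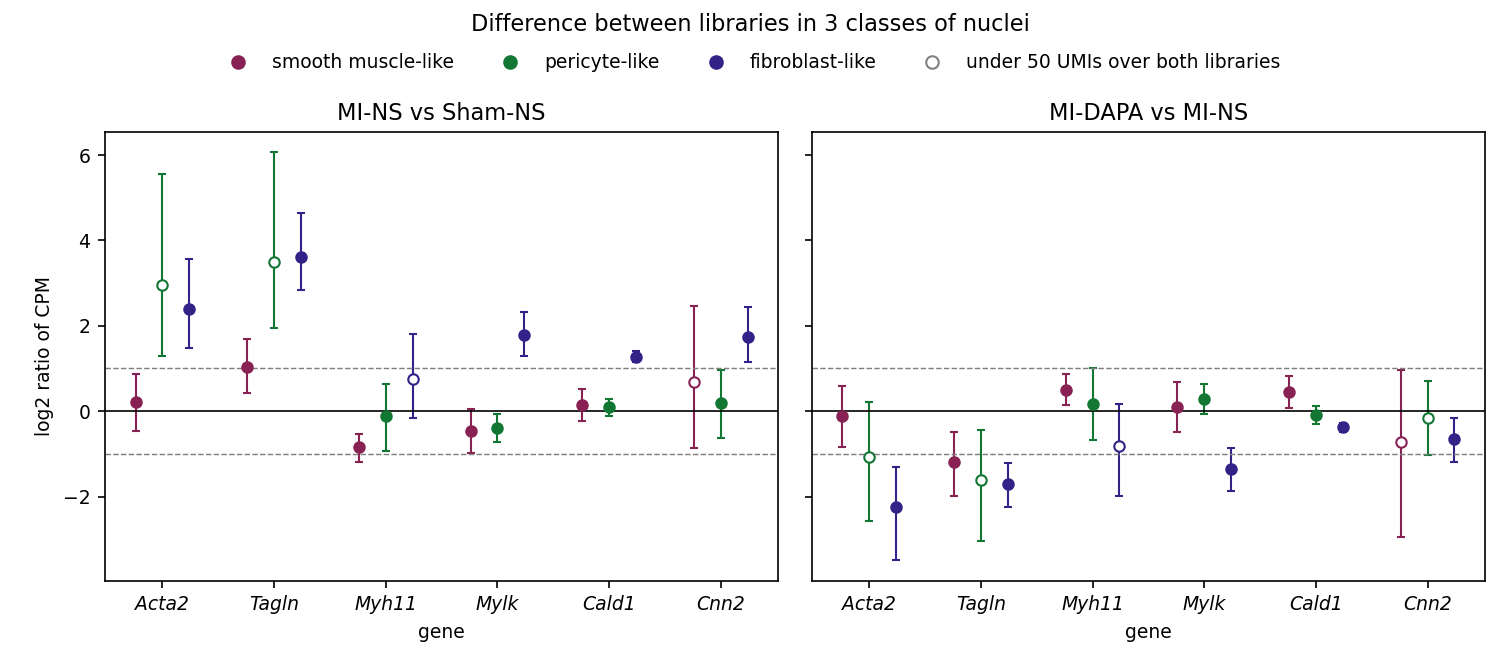
Log2 ratio of CPM between libraries for 6 genes in smooth muscle-like, pericyte-like and fibroblast-like nuclei, with exact conditional binomial 95% intervals; dashed lines mark a 2-fold difference and open points have under 50 UMIs over both libraries. In MI-NS over Sham-NS the filled fibroblast-like points all lie above the upper dashed line, Myh11 in smooth muscle-like nuclei lies at -0.85, and in MI-DAPA over MI-NS the fibroblast-like points of Acta2, Tagln and Mylk lie below the lower dashed line.

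Within the fibroblast-like class of MI-NS, most Tagln and Acta2 UMIs came from the cluster led by Comp and Ltbp2, which held 9, 1310 and 457 nuclei. It gave 188 of the 201 Tagln UMIs and 65 of the 72 Acta2 UMIs of MI-NS, 26 of 38 and 7 of 9 in MI-DAPA, and 0 of 12 and 0 of 10 in Sham-NS. There Tagln stood at 161 CPM in MI-NS and 66.4 in MI-DAPA, and in the cluster led by Pi16 and Vcan (116, 664 and 583 nuclei) at 23.0 and 22.5. In the cluster led by Dpep1 (1649, 61 and 311 nuclei) the Tagln UMIs were 11, 0 and 1.

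The gap between MI-DAPA and MI-NS was also present inside the Comp-led cluster, where the nuclei of both libraries share their class. Its log2 ratios were -1.55 (-3.01 to -0.52) for Acta2, -1.26 (-1.93 to -0.69) for Tagln, -0.77 (-1.39 to -0.22) for Mylk, -0.42 (-0.59 to -0.26) for Cald1 and -0.33 (-1.06 to 0.31) for Cnn2. The interval of Cnn2 includes 0. For Acta2, Tagln, Mylk and Cnn2 these were smaller in size than over the whole class, and for Cald1 larger. MI-DAPA had a lower share of its nuclei in this cluster, at 8.51% of all nuclei against 18.5% in MI-NS. In the Pi16-led cluster, Cald1 was at 485, 820 and 832 CPM and did not separate the infarct libraries.

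**Figure D4:**
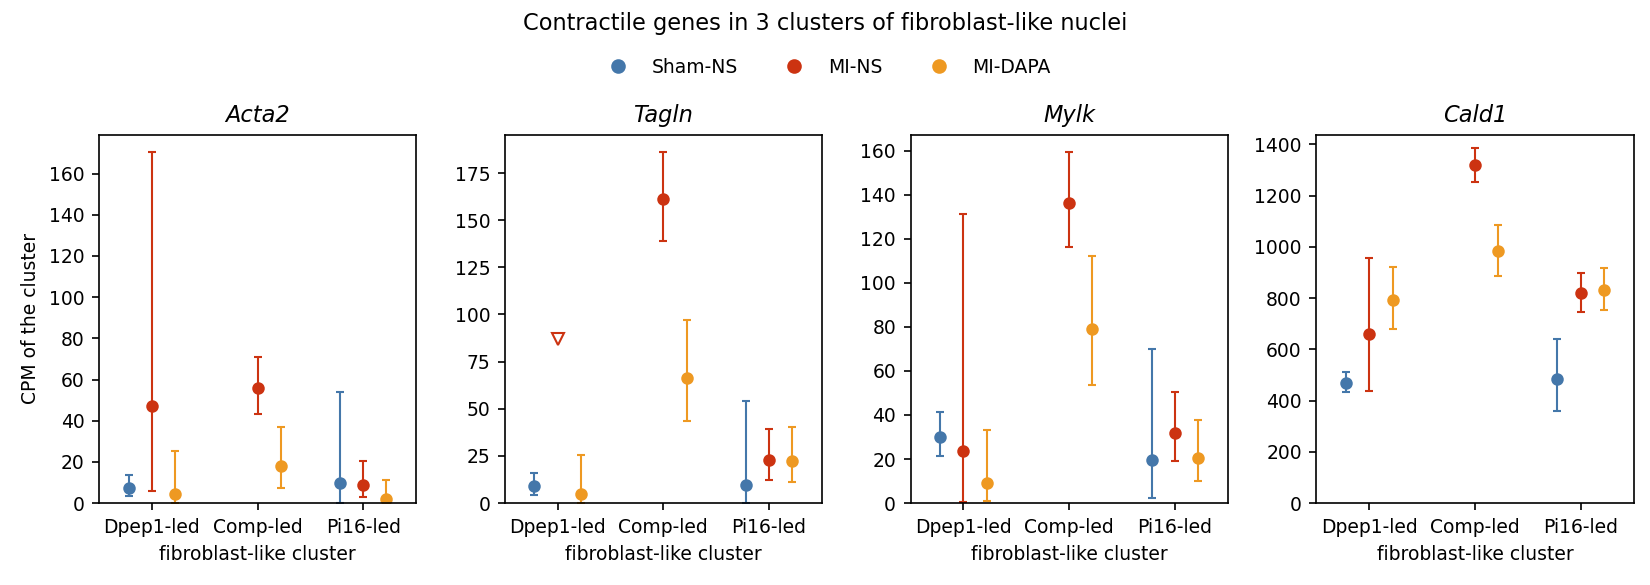
Level in CPM of Acta2, Tagln, Mylk and Cald1 in the 3 clusters of fibroblast-like nuclei, named by a leading gene; points are single libraries, bars are exact Poisson 95% intervals, an open triangle is the upper limit where no UMI was found, and the 9 Sham-NS nuclei of the Comp-led cluster are not drawn. In the Comp-led cluster MI-NS lies above MI-DAPA for each gene, and the Acta2 point of MI-NS in the Dpep1-led cluster rests on 2 UMIs.

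Tagln and Acta2 were also set against Myh11, since a balance between genes of the same nuclei does not depend on the total of the class; this measure was chosen after the levels were seen. In smooth muscle-like nuclei Tagln made up 12.9% (9.04 to 17.6), 35.4% (28.7 to 42.6) and 14.4% (9.13 to 21.1) of the Tagln and Myh11 UMIs. Pericyte-like nuclei gave 6.38% (1.34 to 17.5), 48.9% (33.7 to 64.2) and 21.1% (9.55 to 37.3). Fibroblast-like nuclei gave 46.2% (26.6 to 66.6), 86.3% (81.2 to 90.4) and 77.6% (63.4 to 88.2). MI-NS was highest in each of these classes, and the MI-NS balance of fibroblast-like nuclei did not overlap that of smooth muscle-like nuclei. A high MI-NS share was not particular to them. For Tagln it was 19.3%, 60.3% and 32.5% over all nuclei kept, and 36.4%, 81.0% and 41.2% in vascular endothelial-like nuclei. In lymphatic endothelial-like, endocardial-like and macrophage-like nuclei another library was highest, from at most 3 UMIs. For Acta2 the fibroblast-like values were 41.7%, 69.2% and 45%, and the smooth muscle-like values 14.6%, 26.2% and 18.8%. The balance was not recomputed under other settings, some of which changed the direction of Tagln or Myh11 in smooth muscle-like nuclei.

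**Figure D5:**
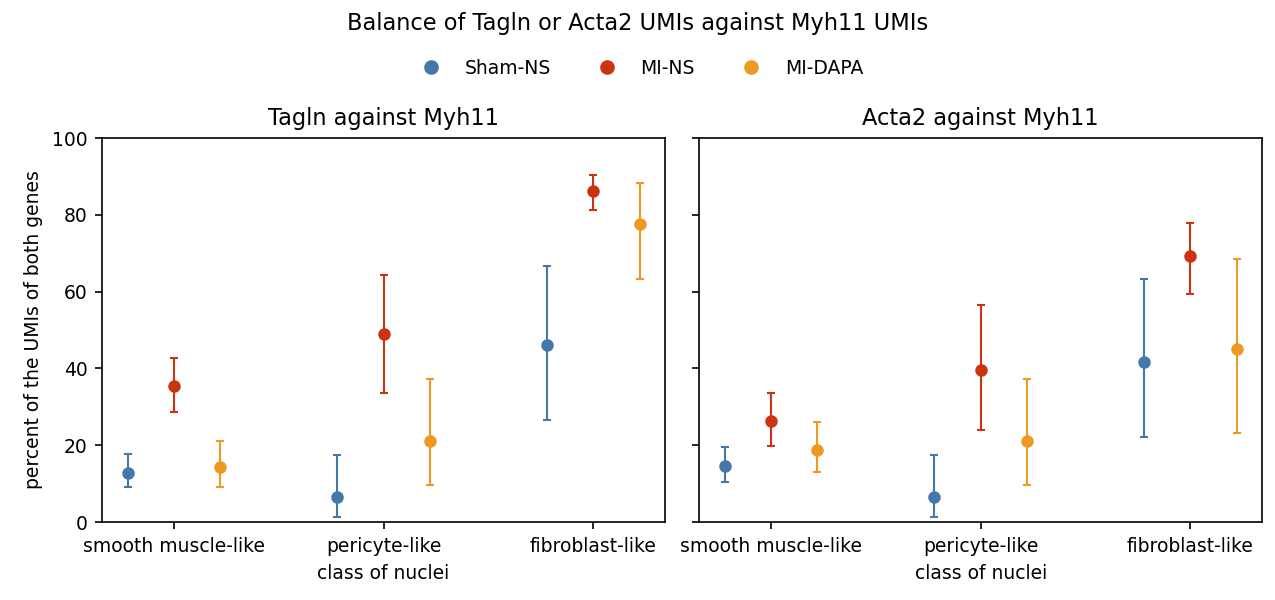
Percent of Tagln (left) or Acta2 (right) among the UMIs of that gene and Myh11 in 3 classes of nuclei, with exact Clopper-Pearson 95% intervals; colours are libraries. MI-NS is the highest point in each class in both panels, and fibroblast-like nuclei lie above smooth muscle-like nuclei in every library.

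Acta2 and Tagln were also found outside the smooth muscle-like, pericyte-like and fibroblast-like classes. In MI-NS vascular endothelial-like nuclei, Acta2 was at 31.4 CPM, against 1.73 in Sham-NS and 6.15 in MI-DAPA, and in MI-NS lymphatic endothelial-like nuclei it was at 71.7 CPM from 10 UMIs. The 106 T or NK-like nuclei of MI-NS had 5 Acta2 UMIs, and those of the other libraries 0. Tagln was at 25.4 CPM in vascular endothelial-like, 14.7 in macrophage-like and 3.27 in cardiomyocyte-like nuclei of MI-NS, below the 113 CPM of fibroblast-like nuclei. The 68 B-like nuclei of MI-NS reached 124 CPM for Tagln, from 7 UMIs. The 461 mesothelial-like nuclei of MI-NS had 62 Tagln and 21 Acta2 UMIs in 672694. The 89 adipocyte-like nuclei of MI-NS had 17 and 5 in 186246. Both genes were lower in these classes than in fibroblast-like nuclei. In MI-NS the levels of Acta2 and Tagln in fibroblast-like nuclei thus lay within the range of the other classes named here. The upper end of that range rests on 10 or fewer UMIs. The part of free RNA in either was not tested.

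Cald1, the most widespread member, was also higher in the MI-NS library in endothelial, cardiomyocyte-like and immune classes. Its level was 379, 801 and 663 CPM in vascular endothelial-like nuclei, 339, 916 and 477 in endocardial-like and 6.50, 62.1 and 17.7 in cardiomyocyte-like nuclei. The log2 ratios of MI-NS to Sham-NS were 1.08 (0.89 to 1.26), 1.43 (1.08 to 1.79) and 3.23 (2.64 to 3.92). In macrophage-like nuclei the ratio was 1.23 (0.56 to 1.97), and with under 50 UMIs it was 2.12 (0.80 to 4.22) in T or NK-like and 1.11 (0.0024 to 2.52) in B-like nuclei. The ratio of 1.28 in fibroblast-like nuclei lies within the range of these classes. In smooth muscle-like and pericyte-like nuclei, where it was highest, the ratios of 0.14 and 0.09 had intervals that include 0. Mylk was not higher in MI-NS endothelium, at 114, 102 and 103 CPM in vascular and 343, 194 and 266 CPM in lymphatic endothelial-like nuclei. The 461 mesothelial-like nuclei of MI-NS held Mylk at 235 CPM, Tagln at 92.2 and Cald1 at 1329, with only 14 and 15 nuclei of the class in the other libraries.

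The partners of the machinery in fibroblast-like nuclei also differed. Of 28 measurable genes of the contractile apparatus, 10 were at least 2-fold higher and 2 lower in MI-NS, relative to Sham-NS, with a median log2 ratio of 0.63 beside 0.11 for all genes, of which 8.85% were higher and 3.93% lower. Between MI-DAPA and MI-NS, 0 were 2-fold higher and 1 lower, with a median of -0.20 beside -0.05 for all genes, of which 1.05% were higher and 3.39% lower, so 1 of 28 is near the share of all genes. Actn1, the actin crosslinker alpha-actinin, was at 35.8, 624 and 322 CPM. Palld, for palladin of actin bundles, was at 49.2 CPM in Sham-NS and 216 in MI-NS, and Csrp2, a LIM protein of smooth muscle, at 35.0 and 157. Actn1 and Csrp2 were below the minimum of UMIs in Sham-NS alone and reached it with those of MI-NS, where they were high. The filter thus in part fixed the count of 10 higher genes. The 1 lower gene, the tropomyosin Tpm2, was at 77.3 CPM in MI-NS and 36.4 in MI-DAPA, at a log2 ratio of -1.07 (-1.63 to -0.57).

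Close relatives of the members were counted next. Of 11 measurable paralogues, 4 were 2-fold higher and 0 lower in MI-NS, relative to Sham-NS, against 8.85% and 3.93% of all genes, with a median of 0.82. Non-muscle myosin Myh9 was at 77.5, 252 and 147 CPM, and cytoplasmic actin Actb at 196 in Sham-NS and 432 in MI-NS. Skeletal actin Acta1, whose sequence is close to that of Acta2 so that reads of the coding part may be hard to tell apart, was at 5.22, 42.9 and 20.9 CPM. Of the transcription factor list 4 of 16 were 2-fold higher and 0 lower, against the same 8.85% and 3.93%, among them Runx1 (7.46 and 181 CPM) and Meox1 (35.0 and 209 CPM), both linked to activated fibroblasts. Of the signalling list 4 of 21 were 2-fold higher, against 8.85%, with Gucy1a1, a subunit of the nitric oxide receptor, at 30.6, 225 and 155 CPM. The median of the signalling list was 0.13, close to that of all genes. Acta1, Runx1, Meox1 and Gucy1a1 were below the minimum of UMIs in Sham-NS alone. They reached it with the UMIs of MI-NS, where they were high, so the filter in part fixed the counts of higher genes in these lists.

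In smooth muscle-like nuclei, 3 of 9 measurable apparatus genes were 2-fold higher in MI-NS, relative to Sham-NS, and 0 lower, against 7.43% and 15.3% of all measurable genes. Myl6, the essential light chain, was at 568, 1615 and 619 CPM, and smoothelin Smtn, itself a marker that named the class, at 526, 1447 and 767 CPM. In both, as in Tagln, MI-NS was the highest library. Myl6 and Smtn were below the minimum of UMIs in Sham-NS alone and reached it with those of MI-NS. The filter thus in part fixed the count of 3. Rock1, a kinase that sustains contraction by blocking myosin phosphatase, was lowest in MI-NS, as Myh11 was, at 1221, 713 and 1386 CPM. Fn1 and Col3a1, matrix genes of fibroblasts, were at 21.1 (1 UMI) and 126 CPM in Sham-NS and at 1279 and 1049 CPM in MI-NS smooth muscle-like nuclei, and their share in these differences was not tested.

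The genes whose pattern was most like that of Acta2 over 31 sums of class and library were Olfr78, Tpm2, Pcbp2, Akr7a5 and Tmem136, with Pearson correlations of log2(CPM + 1) of 0.92, 0.85, 0.83, 0.78 and 0.77 among 10583 genes. Among the members, Myl9 (0.89), Myh11 (0.84) and Tagln (0.79) were nearest to Acta2, and Cald1 (0.52) and Cnn2 (0.30) farthest. For Myh11 the nearest members were Myl9 (0.86), Acta2 (0.84) and Lmod1 (0.81), and the nearest other genes were Olfr78, Olfr558, Rasl12, Mrvi1 and Rgs4, at 0.89 to 0.80. The sums share their libraries and differ in depth, Olfr78 and Olfr558 led the smooth muscle-like cluster and Mrvi1 is one of its markers, so these values are descriptions.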

How the data were processed

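The deposited matrices hold UMI counts per gene and nucleus, 1 matrix per library. The submitters' processing notes list Cell Ranger 6.0.1, the mouse build mm10 and Seurat, with no role for each. Nuclei with at least 300 genes and at most 10% mitochondrial UMIs were kept, of 9744, 7725 and 6354 barcodes. With scanpy 1.11.5 and leidenalg 0.10.2, 2000 variable genes per library were united, without the 10 genes, and reduced to 30 components for Leiden clustering at resolution 1.0, with no batch correction. Clusters were named from marker sets, and mural nuclei were clustered again at resolution 0.5. Scrublet called 0, 0 and 1 doublets and so has not worked. Clusters with a median doublet score above 0.1 were left out as mixed (15.8%, 12.3% and 10.7% of nuclei), as was 1 cluster led by cell-cycle genes; both rules were chosen after the data were seen.

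UMIs were summed over each class and library and divided by the class total. Levels have exact Poisson intervals, ratios exact conditional binomial intervals and shares Clopper-Pearson intervals. Fitted log2 ratios had 0.5 UMI added to single genes. The calculation was tested on simulated data. Every member is described; from each list up to 4 genes with the largest ratio per class and contrast were named. The members and lists were chosen with earlier results of these data known. Alternatives covered clustering, filters, thinning, class rule, minimum UMIs and edgeR 4.0.16 TMM factors.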

Additional observations from a re-analysis of the deposited data

Results flagged for a closer look

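Cald1 differed in opposite directions between classes. Its log2 ratio of MI-DAPA to MI-NS was 0.45 in smooth muscle-like nuclei and -0.38 in fibroblast-like nuclei. When nuclei were classed by marker level, the smooth muscle-like ratio was -0.32, so the opposite directions depend on how nuclei are classed. Mylk did so between the infarct and sham libraries, with a log2 ratio of MI-NS to Sham-NS of -0.39 in pericyte-like nuclei and 1.77 in fibroblast-like nuclei. Each direction rests on 1 library per group, and the difference between the classes was not tested.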

How the results depend on the processing

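Of the values recomputed under the alternatives, 660 stayed within the range allowed by counting error and 107 moved beyond it. Another 5, whose interval excluded 0 under the main settings, changed direction. Values whose main interval included 0 were counted among the 660 or the 107 even where their sign changed. Counts of members past 2-fold were judged by their ratio to the main count instead of counting error. The cause was not tested. Over all settings the log2 ratio of the summed level in fibroblast-like nuclei kept its direction, reaching 1.61 for MI-NS over Sham-NS and -0.71 for MI-DAPA over MI-NS when nuclei were classed by marker level. In pericyte-like nuclei MI-NS over Sham-NS was -0.11 with the members allowed in clustering and -0.12 by marker level. In smooth muscle-like nuclei MI-NS over Sham-NS was -0.83 at Leiden resolution 2.0, -0.68 with the members allowed, 0.29 with mixed clusters kept, -0.997 with the stricter filter, 1.24 by marker level and -0.44 with nuclei thinned to 500 UMIs. There MI-DAPA over MI-NS was 0.60, 0.41, 0.40, 0.77 and -0.66 under the first 5 of these, so the smooth muscle-like sum has no direction that holds over the settings. Some single genes of that class changed direction though their interval excluded 0 under the main settings. These were Tagln in MI-NS over Sham-NS (-0.13, stricter filter) and Myh11 in MI-DAPA over Sham-NS (0.52, mixed clusters kept). By marker level they were Myh11 in MI-NS over Sham-NS (0.76), Myh11 in MI-DAPA over MI-NS (-0.77) and Cald1 in MI-DAPA over MI-NS (-0.32). The count of fibroblast-like members past 2-fold for MI-NS over Sham-NS was 3 with a minimum of 200 UMIs and 8 with none. For MI-DAPA over MI-NS it was 5 with mixed clusters kept and 7 with no minimum. The share of all genes past 2-fold was not computed under these settings. No paired analysis was possible because each group is 1 library. Depth leaves 5 of 10 members under 50 UMIs in smooth muscle-like and fibroblast-like nuclei for MI-NS against Sham-NS, and 6 in pericyte-like nuclei.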
